A study of Sus scrofa with 16 samples.

Results

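The miRNAs described here are ssc-miR-202-5p, ssc-miR-224, ssc-miR-378, ssc-miR-320 and ssc-miR-383, a set of miRNAs that are known from work on the granulosa cell and on the making of ovarian steroids. They were chosen by name from the deposited table of miRNA counts in the ovary of the sow, and the name pattern matched 5 of the 1940 entries, which comprised 216 known and 1724 predicted miRNAs. The samples were ovarian tissue of Canadian Large White sows, and every sow belonged to this strain. The study's methods do not say whether the whole ovary was used. The LH group held high fecundity sows and the LL group low fecundity sows, both slaughtered in the luteal phase on day 14 after estrus (n = 4 each). The FH group held high fecundity sows and the FL group low fecundity sows, both slaughtered in the follicular phase on day 20 (n = 4 each). Fecundity had been graded by the number of piglets born, each sow gave 1 library, and no treatment or altered genotype was involved.

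Granulosa cells line the growing follicle and turn androgen into estradiol with the enzyme aromatase, and after ovulation they become part of the corpus luteum, which makes progesterone. A miRNA pairs with messenger RNAs through a short seed at its 5′ end and lowers the protein made from them. The miRNA miR-202-5p is enriched in the gonads of vertebrates. The miRNA miR-224 is induced by transforming growth factor beta in granulosa cells and targets SMAD4, a carrier of that signal. The aromatase gene CYP19A1 is a target of miR-378. In mouse granulosa cells miR-320 represses NR5A1 and E2F1 and lowers estradiol release, while miR-383 represses RBMS1 and raises it. These are background facts from other work, and since ovarian tissue of mixed cells was sequenced, the cell type that made each miRNA was not measured.

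The members covered a wide span of abundance. Ranked by total counts among the 216 known miRNAs, ssc-miR-320 was 43rd with 428546 counts, ssc-miR-202-5p 44th with 428285, ssc-miR-378 55th with 319426, ssc-miR-224 176th with 2568 and ssc-miR-383 199th with 216. The most abundant of them, ssc-miR-320, held 0.141% of all counts and ssc-miR-224 held 0.000848%. All 5 passed the filter on low counts in the fits of all 16 libraries, but in pairs of groups ssc-miR-383 passed it for FH vs. FL and not for the other pairs. Rank by counts compares reads, which also depend on how well each small RNA is ligated and amplified.

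The RefSeq annotation of Sscrofa11.1, a later assembly than the Sscrofa10.2 build behind the counts, was used for gene neighbours. It places MIR224 on chromosome X inside GABRE, a gene that also holds MIR452. It places MIR383 inside SGCZ on chromosome 17 and MIR320 at POLR3D on chromosome 14, and it shows no gene overlapping MIR202, which is also on chromosome 14. There are loci for miR-378 inside PPARGC1B on chromosome 2 and inside BCAS3 on chromosome 12, and the counts of ssc-miR-378 cannot be assigned to either. No member shared its counts with another entry of the table. Of 8 known hairpins with both arms listed, 4 had the same counts in both arms, so which arm a read came from is uncertain in general and the arm in the name ssc-miR-202-5p was not checked.

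Library totals ran from 8998496 to 37194836 counts. Levels below are CPM, read counts scaled to a common library size, with a correction by TMM, a normalization on the bulk of the miRNAs, on 1 scale over the 16 libraries. The factors were 1.19 to 1.74 in LL and 0.67 to 1.23 in the other groups, so results were also read by library size alone. In sows LH4, FL2 and FL4 the 5 miRNAs of an epithelial list (ssc-miR-34c, ssc-miR-429, ssc-miR-205, ssc-miR-182 and ssc-miR-183) summed to 7510 to 21828 CPM, against 145 to 1118 CPM in the other 13 libraries. The omission of LH4, FL2 and FL4 was chosen after the data were seen, and each comparison was also fitted without them. In ovarian tissue, fewer cells of a type and less RNA per cell cannot be told apart.

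The level of ssc-miR-202-5p was high in luteal ovaries and low in follicular ovaries. Sows LH1 to LH4 had 2564, 1241, 2707 and 1209 CPM, and sows LL1 to LL4 had 1328, 3843, 1478 and 2162 CPM. Sows FH1 to FH4 had 1144, 268, 1302 and 494 CPM, and sows FL1 to FL4 had 596, 302, 328 and 64.5 CPM. All FL values lay below all luteal values, and FH3 reached the lower luteal sows. Every library held it, with 1141 to 74522 counts. In order of their means the groups were LL with 2203 ± 1152 CPM, LH with 1930 ± 817, FH with 802 ± 499 and FL with 323 ± 217 (SD, n = 4). Every pair of neighbours in this order overlapped, and the exact permutation test gave p = 0.743 for LL and LH, 0.0857 for LH and FH and 0.2 for FH and FL.

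The level of ssc-miR-224 was low in all libraries, from 19 to 573 counts, and was highest in LL. In LH the 4 sows had 5.77, 2.70, 16.6 and 3.82 CPM, and in LL they had 10.3, 29.6, 13.3 and 8.19 CPM. In FH they had 5.55, 8.01, 3.81 and 5.38 CPM, and in FL 4.23, 3.02, 1.80 and 4.86 CPM. The LL sows lay above all 8 follicular sows, whereas LH3 stood above the other LH sows, which lay within the follicular range. The means were 15.3 ± 9.70 CPM in LL, 7.21 ± 6.36 in LH, 5.69 ± 1.74 in FH and 3.48 ± 1.35 in FL (SD, n = 4). The neighbours in this order overlapped, with exact permutation p = 0.143 for LL and LH, 0.857 for LH and FH and 0.114 for FH and FL.

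The other 2 abundant members had the opposite order of phases. For ssc-miR-378 the LH sows had 935, 717, 681 and 910 CPM, and the LL sows had 847, 752, 736 and 741 CPM. The FH sows had 1236, 2105, 966 and 854 CPM, and the FL sows had 1348, 1775, 1842 and 2174 CPM. All 4 FL sows were above all luteal sows, and FH4 was within the luteal range. The means were 1785 ± 339 CPM in FL, 1290 ± 566 in FH, 811 ± 130 in LH and 769 ± 52.6 in LL (SD, n = 4). Neighbouring groups overlapped, with exact permutation p = 0.171 for FL and FH, 0.114 for FH and LH and 0.714 for LH and LL.

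For ssc-miR-320 the highest levels were in FL and the lowest in LL. The LH sows had 655, 1917, 1134 and 965 CPM and the LL sows 794, 451, 784 and 897 CPM. The FH sows had 1028, 1390, 1166 and 2368 CPM and the FL sows 1173, 3684, 3121 and 3064 CPM. FL2, FL3 and FL4 lay above every other sow of the study, and FL1 lay close to FH3. The means were 2760 ± 1095 CPM in FL, 1488 ± 605 in FH, 1168 ± 537 in LH and 731 ± 194 in LL (SD, n = 4). Each neighbouring pair overlapped, with exact permutation p = 0.0857 for FL and FH, 0.371 for FH and LH and 0.171 for LH and LL.

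The remaining member, ssc-miR-383, was near the detection limit. It had 0 counts in LH1, LL3 and FH4, and the upper limit that 3 counts set in these libraries was 0.201, 0.168 and 0.0807 CPM of the library total. In 12 of the other libraries it had 3 to 23 counts. The follicular sow FL4 had 104 of the 216 counts and a level of 5.88 CPM, and FL4 is also one of the libraries with a high sum of the epithelial list. The next highest levels were 1.58 CPM in FH2 and 1.47 CPM in FH1.

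**Figure D1:**
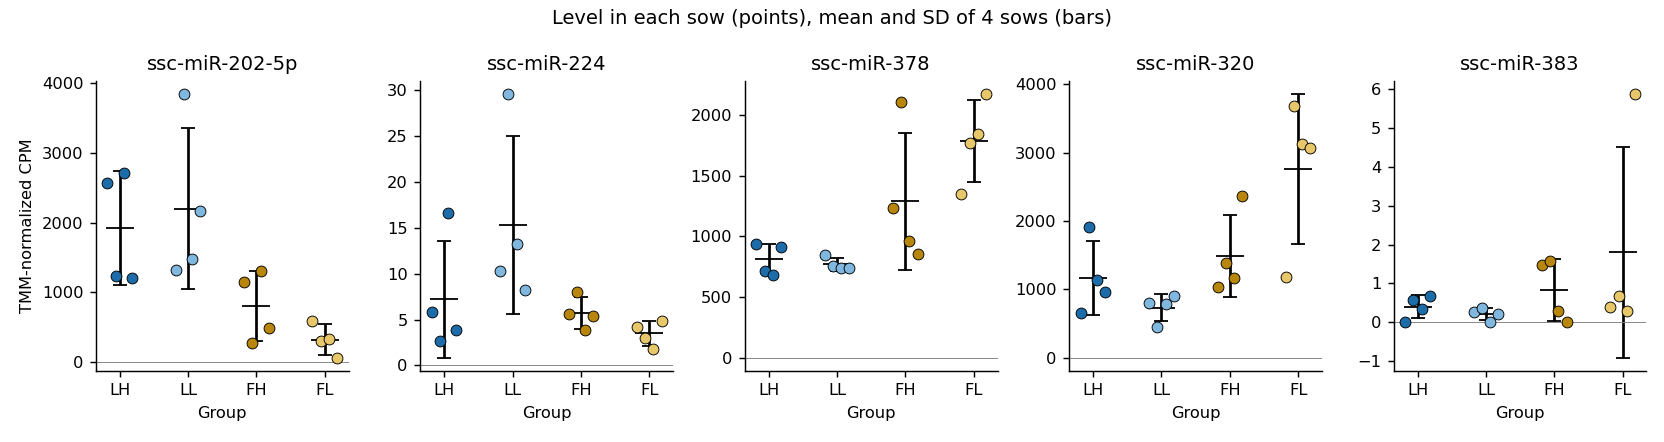
Level of each member in each sow (points) in TMM-normalized CPM by group, with the mean and SD of 4 sows (bars), each panel on its own linear scale. The LL and FL points do not overlap for the first 4 panels, while ssc-miR-383 lies below 2 CPM in every sow but FL4.

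The comparison of LL with FL asked how low fecundity ovaries differ between the phases. Of the 4 members tested, ssc-miR-202-5p and ssc-miR-224 were higher in LL and ssc-miR-378 and ssc-miR-320 were lower. All 4 passed the study's threshold, which asks for P below 0.05 before adjustment together with a change of 1 or more on the log2 scale in either direction. They also had an adjusted p under 0.05 over all entries tested (edgeR quasi-likelihood test, Benjamini-Hochberg). The study's threshold was passed by 29.8% of the 339 entries tested and the adjusted threshold by 17.7%, so phase differences were common in these sows. On the TMM scale the LL and FL values of each of these 4 members did not overlap, which was also so for 29.5% of all entries tested. By library size alone those of ssc-miR-378 and ssc-miR-320 did overlap, and those of ssc-miR-202-5p and ssc-miR-224 did not. The share of all entries was not computed on that scale.

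The gonadal ssc-miR-202-5p was 6.65-fold higher in LL than in FL (95% interval 2.13 to 20.8, log2 fold change 2.73, SE 0.713, adjusted p = 0.0340 by edgeR). The TGF-beta induced ssc-miR-224 was 4.53-fold higher (1.74 to 11.8, log2 fold change 2.18, SE 0.599, adjusted p = 0.0425 by edgeR). The aromatase-targeting ssc-miR-378 was 2.12-fold lower (1.57 to 2.88, log2 fold change -1.09, SE 0.190, adjusted p = 0.0101 by edgeR). The level of ssc-miR-320 was 3.36-fold lower (1.87 to 6.04, log2 fold change -1.75, SE 0.367, adjusted p = 0.0146 by edgeR). For each of them the exact permutation test on log2(CPM + 1) gave p = 0.0286, two-sided, which is the smallest p that 4 against 4 sows allow. All 4 stayed past the study's threshold when any single sow was left out, but the adjusted calls were less firm. With 1 sow left out, ssc-miR-378 and ssc-miR-320 kept an adjusted p under 0.05 in all 8 fits, ssc-miR-202-5p in 2 (0.0275 to 0.131 by edgeR) and ssc-miR-224 in 0 (0.0573 to 0.143 by edgeR). Each of these fits was filtered anew, so the set of entries adjusted over could also change.

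Some of these calls depended on scaling. By library size alone the median log2 fold change of all entries in LL vs. FL moved from 0.22 to 0.61, and the entries past the threshold from 53 higher and 48 lower to 64 and 29. On that scale ssc-miR-378 was at a log2 fold change of -0.66 (adjusted p = 0.246 by edgeR) and did not pass, and its mean levels were then 1123 ± 254 CPM in LL and 1773 ± 728 in FL. There ssc-miR-320 passed the study's threshold at -1.40 with an adjusted p of 0.102 by edgeR. With no filter on low counts ssc-miR-224 was at 2.15 (adjusted p = 0.232 by edgeR) and did not pass, and no member kept an adjusted p under 0.05 (0.102 to 0.232 by edgeR). Without LH4, FL2 and FL4, which leaves 2 FL sows, all 4 members passed the study's threshold, beside 120 of 488 entries. There ssc-miR-378 alone kept an adjusted p under 0.05 (0.0420 by edgeR), beside 51 of 488 entries. The sum of the smooth muscle and stroma list (ssc-miR-143-3p, ssc-miR-145-5p, ssc-miR-199a-5p and ssc-miR-214) was 84507 to 135648 CPM in LL and 197995 to 364656 CPM in FL, and 3 of its 4 miRNAs were past the study's threshold and lower in LL. Skeletal or cardiac muscle miRNAs summed to 449 to 984 CPM in LL and 565 to 3034 CPM in FL. Of the 5 tested, 1 was past the study's threshold and higher in LL and 3 lower, beside 15.6% and 14.2% of all entries. The part of either difference in the members' values was not tested.

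In high fecundity sows none of the 4 members tested passed the study's threshold in LH vs. FH, against 12.4% of 323 entries. The luteal level of ssc-miR-202-5p was 2.47-fold the follicular level (95% interval 0.988 to 6.16, adjusted p = 0.315 by edgeR), just short of the study's threshold. It passed in 7 of the 10 other settings, among them DESeq2 (log2 fold change 1.21, adjusted p = 0.235) and the omission of LH4, FL2 and FL4. That omission removes LH4 alone from this pair (1.41, adjusted p = 0.275 by edgeR). With 1 sow left out ssc-miR-202-5p passed in 3 of 8 fits (0.90 to 1.71), and the fit without LH4 is counted in both. By library size alone the LH and FH values of ssc-miR-202-5p did not overlap. On the TMM scale they overlapped, as did those of all but 11.8% of 323 entries, and the share by library size was not computed. Scaling by library size alone also moved the median log2 fold change of all entries in LH vs. FH upward, from 0.23 to 0.42. For ssc-miR-224 the log2 fold change was 0.38 (95% interval -1.13 to 1.89), and without LH3 it was -0.64. The value for ssc-miR-378 was -0.66 (-1.5 to 0.17), and for ssc-miR-320 it was -0.30 (-1.12 to 0.53). The interval of ssc-miR-378 held 0 and also held its value in LL vs. FL.

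Over both fecundity classes, with fecundity as a term in the fit, the phases were compared in all 16 sows. This comparison shares its sows with the pairs above and is not independent of them. Past the study's threshold were ssc-miR-202-5p, ssc-miR-224 and ssc-miR-320, 3 of the 5 members, against 19.8% of 445 entries. An adjusted p under 0.05 was reached by ssc-miR-202-5p, ssc-miR-378 and ssc-miR-320, against 15.1% of entries. The luteal level of ssc-miR-202-5p was 4.05-fold the follicular level (95% interval 1.96 to 8.39, adjusted p = 0.0167 by edgeR, exact permutation p = 0.00122 within fecundity classes). Of 8 luteal sows 6 were above all follicular sows, and by library size alone all 8 were. On the TMM scale 1.8% of 445 entries, ssc-miR-202-5p not among them, had phases without overlap. That share was not computed by library size, where the median log2 fold change of all entries moved from 0.17 to 0.56.

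The pooled luteal decrease of ssc-miR-378 was below the fold threshold, with a log2 fold change of -0.94 (SE 0.201, adjusted p = 0.00824 by edgeR, exact permutation p = 0.00163). Its level was 1.92-fold lower (95% interval 1.43 to 2.58). By library size alone the exact permutation p for ssc-miR-378 was 0.0641. The level of ssc-miR-320 was 2.19-fold lower in luteal ovaries (1.29 to 3.72, adjusted p = 0.0433 by edgeR, exact permutation p = 0.0122), and by library size alone the log2 fold change was -0.75 (adjusted p = 0.181 by edgeR). For ssc-miR-320 the call also ended when the share of clean reads was a covariate (-0.88), without LL2 (-0.95) and without FL2 (-0.999), where the fold fell below the threshold. Its adjusted p stayed under 0.05 in 2 of 16 fits with 1 sow left out (0.0124 to 0.102 by edgeR). That of ssc-miR-378 did so in all 16, and that of ssc-miR-202-5p in 15, the exception being without FL3 (0.0673 by edgeR).

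The pooled value of ssc-miR-224 rested on fewer counts and was less firm, at a log2 fold change of 1.24 (SE 0.532, adjusted p = 0.138 by edgeR, exact permutation p = 0.0429). It lost the call when any of 8 sows was left out (LH3, LL2, LL3, FH3 and each FL sow), with values of 0.93 to 1.21, and also with no filter and with the share of clean reads in the fit. For ssc-miR-383 the log2 fold change was -2.06 (95% interval -4.71 to 0.58, adjusted p = 0.312 by edgeR, exact permutation p = 0.0992), and it passed the study's threshold with DESeq2 (-2.06, adjusted p = 0.113). Without LH4, FL2 and FL4 the members past the study's threshold fell from 3 to 1, ssc-miR-202-5p (log2 fold change 1.75, adjusted p = 0.0426 by edgeR). In the reported fit 88 of 445 entries passed, and without these libraries 145 of 618. Without them ssc-miR-378 was at -0.94 (adjusted p = 0.0426 by edgeR), ssc-miR-320 at -0.83 and ssc-miR-224 at 1.22.

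**Figure D2:**
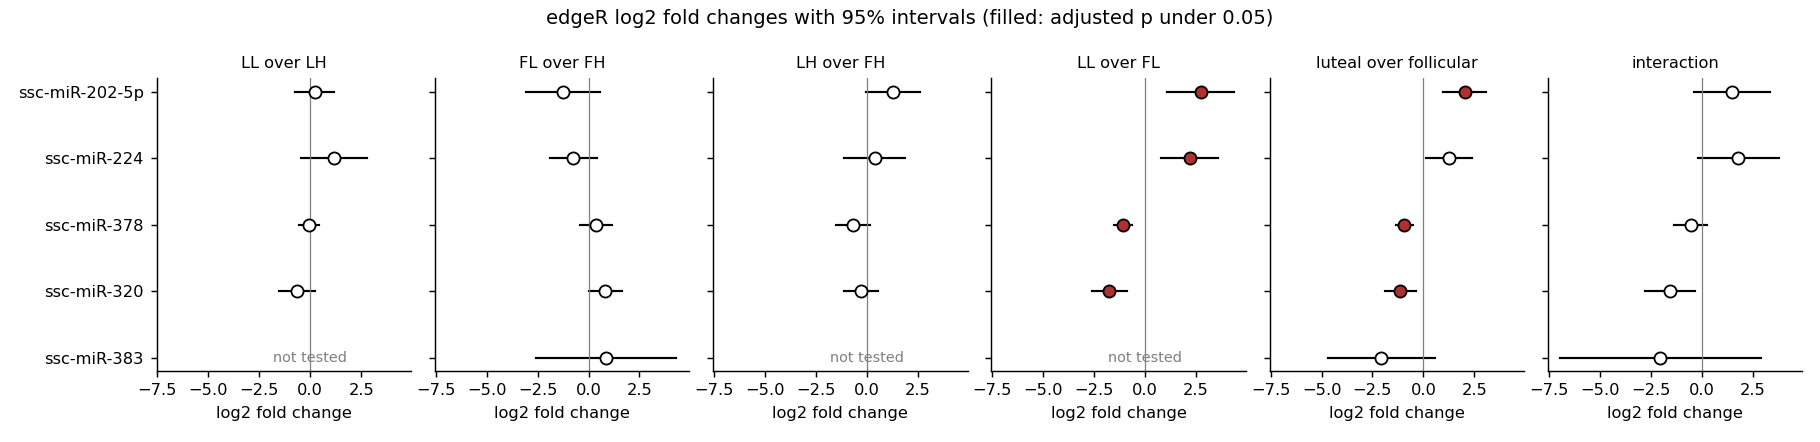
Fitted log2 fold changes of the members with 95% intervals in each comparison (edgeR), with filled points at an adjusted p under 0.05. Filled points stand in LL over FL (4 members) and in luteal over follicular (3 members), and among open points the intervals of ssc-miR-320 in FL over FH and in the interaction and of ssc-miR-224 in luteal over follicular stay clear of 0.

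Fecundity was compared within each phase. In the luteal phase none of the 4 members tested passed the study's threshold in LH vs. LL, against 13.0% of 362 entries. The level of ssc-miR-378 was the most even of them, with a log2 fold change of -0.06 in LL over LH (95% interval -0.56 to 0.44, adjusted p = 0.924 by edgeR). This interval leaves room for differences of up to about 1.48-fold, and by library size alone the value was 0.55. For ssc-miR-202-5p the value was 0.23 (-0.73 to 1.19), for ssc-miR-320 it was -0.66 (-1.53 to 0.22), and for ssc-miR-224 it was 1.17 (-0.46 to 2.79). By library size alone the value of ssc-miR-320 was -0.02. Without LH3, the LH sow with the highest ssc-miR-224, that member was at 1.88 (adjusted p = 0.278 by edgeR) and passed the threshold, as it did by library size alone (1.75, adjusted p = 0.205 by edgeR). Without LL2, the LL sow with the highest ssc-miR-224, the value was 0.53 and did not pass.

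In the follicular phase none of the 5 members passed the study's threshold in FH vs. FL, against 6.19% of 307 entries. The NR5A1-targeting ssc-miR-320 was 1.77-fold higher in FL than in FH (95% interval 1.02 to 3.08, adjusted p = 0.644 by edgeR), below the fold threshold. It passed that threshold without FH4 (log2 fold change 1.16) and without FL1 (1.15), the sows nearest to the other group, and by library size alone (1.29). The value of ssc-miR-320 was lower with the share of clean reads in the fit (0.33), with parity (0.51) and without FL2 and FL4 (0.53). It did not pass there or in the other 6 fits with 1 sow left out (0.64 to 0.90). The values of ssc-miR-202-5p and ssc-miR-224 in FL over FH were -1.25 (SE 0.784) and -0.75 (SE 0.502), each with an adjusted p of 0.704 by edgeR. The value of ssc-miR-378 was 0.37 (SE 0.349, adjusted p = 0.797 by edgeR). For ssc-miR-383 the value of 0.87 (SE 1.48) turned to -0.95 without FL4.

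Whether the phase difference differed between fecundity classes was asked by the interaction, which is the same as asking whether the fecundity difference differed between phases. Of the 5 members 1, ssc-miR-320, passed the study's threshold, against 13.3% of 445 entries, with an interaction of -1.57 on the log2 scale (95% interval -2.79 to -0.34, adjusted p = 0.216 by edgeR). On the TMM scale, from high to low fecundity, ssc-miR-320 went from 1168 to 731 CPM in luteal ovaries and from 1488 to 2760 CPM in follicular ovaries. By library size alone these means were 1078 and 1061 CPM in luteal ovaries, nearly the same, and 1150 and 2801 CPM in follicular ovaries. The call ended by library size alone (-1.31, adjusted p = 0.355 by edgeR), without LH2 (-1.14) and without LH4, FL2 and FL4 (-1.23, adjusted p = 0.497 by edgeR). None of the 445 entries tested had an adjusted p under 0.05 for the interaction by edgeR, where 63 had an unadjusted P under 0.05. DESeq2 gave 59, and edgeR with no filter on low counts gave 24. The interaction was 1.79 for ssc-miR-224 (95% interval -0.20 to 3.79) and 1.5 for ssc-miR-202-5p (-0.37 to 3.37), and neither passed the study's threshold. The interaction of ssc-miR-224 passed it with DESeq2 (1.90, adjusted p = 0.155), with TMM on known miRNAs (1.999) and without LH3 (2.59). That of ssc-miR-202-5p passed by library size alone (2.03) and without FL1 (2.02), and was 0.73 without LH4, FL2 and FL4. In none of these fits was the adjusted p under 0.05. The interaction of ssc-miR-378 was -0.54 (-1.35 to 0.26).

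Since the luteal-high and luteal-low members are counted in the same library, their ratio does not depend on the normalization. The pairs were chosen after the values were seen, so their ratios are described without a test. Where the LL sows lay above all FL sows for 1 member and below them for the other, their ratios cannot overlap. For such pairs the LL and FL ratios restate the values above. The ratio of ssc-miR-202-5p to ssc-miR-378 counts ran in luteal sows from 1.33 to 3.98 (LH) and from 1.57 to 5.11 (LL). In follicular sows it ran from 0.127 to 1.35 (FH) and from 0.0297 to 0.442 (FL). Of the 8 luteal sows 7 lay above every follicular sow. The ratio of ssc-miR-202-5p to ssc-miR-320 was 0.647 to 8.52 in luteal and 0.0210 to 1.12 in follicular sows. The ratio of ssc-miR-224 to ssc-miR-378 was 0.0110 to 0.0393 in LL and 0.000980 to 0.00314 in FL, which do not overlap for the reason given. The ratio of ssc-miR-320 to ssc-miR-378 spanned 0.600 to 2.67 in luteal and 0.660 to 2.77 in follicular sows, nearly the same range.

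**Figure D3:**
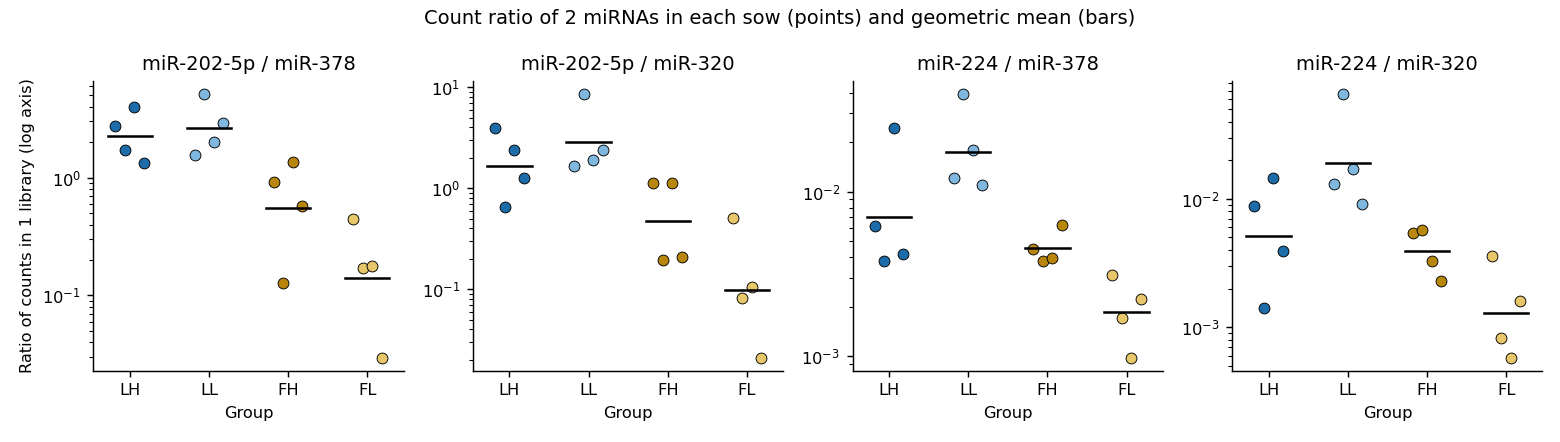
Ratio of the counts of 2 members in the same library, by sow (points) with the geometric mean of each group (bars), on a log axis. In each panel the LL points lie above the FL points, which follows from the values of the single members. In the panel of ssc-miR-202-5p over ssc-miR-378 the luteal sows run from 1.33 to 5.11 and the follicular sows from 0.0297 to 1.35.

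**Figure D4:**
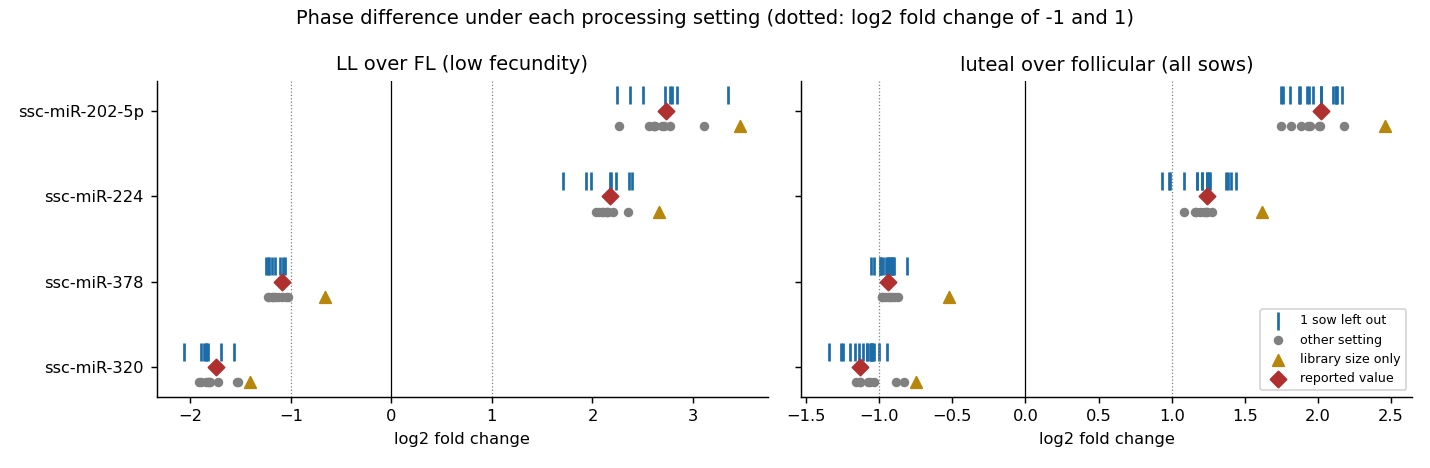
Log2 fold change of 4 members under each processing setting for LL over FL and for luteal over follicular, with the reported value as a diamond, fits with 1 sow left out as ticks, library size alone as a triangle and the other settings as dots. The signs hold in every setting drawn, library size alone moves each value upward, and ssc-miR-378 crosses the dotted line at -1 in LL over FL with library size alone.

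The likeness of the members to other miRNAs was described by the correlation of log2(CPM + 1) over the 16 libraries, among 195 candidates. These points share group and library composition, so no test is given. The level of ssc-miR-202-5p was most like ssc-miR-532-5p (Pearson's r = 0.837, Spearman's rho = 0.912), ssc-miR-450b-5p (r = 0.833, rho = 0.871) and ssc-miR-148b-5p (r = 0.817, rho = 0.944). The level of ssc-miR-224 was most like ssc-miR-218 (r = 0.826, rho = 0.891), and ssc-miR-532-5p and ssc-miR-148b-5p followed (r = 0.778 for both). The lists of ssc-miR-202-5p and ssc-miR-224 thus shared ssc-miR-532-5p and ssc-miR-148b-5p.

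The levels of ssc-miR-320 were most like those of ssc-miR-181d-5p (r = 0.911, rho = 0.938), ssc-miR-186 (r = 0.890, rho = 0.918) and ssc-miR-181c (r = 0.888, rho = 0.941). Within groups, after centring, r was 0.745, 0.817 and 0.841 for these miRNAs. The nearest to ssc-miR-378 were the smooth muscle ssc-miR-145-5p (r = 0.804, rho = 0.741), ssc-miR-23a (r = 0.780, rho = 0.785) and ssc-miR-181c (r = 0.760, rho = 0.676), and after centring r with ssc-miR-181c was 0.10. For ssc-miR-383 they were ssc-miR-190b (r = 0.704), the member ssc-miR-378 (r = 0.659) and ssc-miR-376c (r = 0.654, rho = 0.168), with most points near 0 CPM. Between members, ssc-miR-202-5p ran against ssc-miR-378 (r = -0.866, rho = -0.806) and against ssc-miR-320 (r = -0.815, rho = -0.832). The pair ssc-miR-378 and ssc-miR-320 had r = 0.628, which centring within groups reduced to -0.04.

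The miRNA ssc-miR-452, which lies in the same host gene as miR-224, also had its highest mean in LL but did not share the order of the other groups. Its mean levels were 56.4 ± 32.9 CPM in LL and 15.4 ± 16.4 in LH, and 39.2 ± 25.0 in FL and 45.1 ± 17.2 in FH (SD, n = 4), and LH3, the LH sow with the most ssc-miR-224, had 0 counts. Over the 16 libraries, LH3 included, the correlation with ssc-miR-224 was r = -0.08 (rho = 0.20), and the value without LH3 was not computed. In LL over LH the log2 fold change was 1.86 for ssc-miR-452 (95% interval -1.46 to 5.19) and 1.17 for ssc-miR-224 (-0.46 to 2.79). In LL vs. FL the log2 fold change of ssc-miR-452 was 0.68 (95% interval -0.74 to 2.1), against 2.18 for ssc-miR-224, and it passed the threshold in none of the 6 comparisons.

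A list of 18 other miRNAs described in granulosa or luteal cells was set beside the members, and all 18 were tested in each comparison. In LL vs. FL 4 were past the study's threshold and higher and 7 lower, beside 15.6% and 14.2% of all entries, and the list's median log2 fold change was -0.11, beside 0.22 over all entries. Higher in LL were ssc-miR-21, which protects granulosa cells from apoptosis (2.41, adjusted p = 0.00174 by edgeR), the gonadotropin-induced ssc-miR-132 (1.70) and ssc-miR-212 (2.06), and ssc-miR-335 (1.90). Lower in LL were ssc-miR-10a-5p (-3.72), ssc-miR-133b (-3.15), the smooth muscle ssc-miR-145-5p (-2.35), ssc-miR-210 (-2.12), the lymphocyte ssc-miR-150 (-2.0), ssc-miR-181a (-1.15) and ssc-miR-214 (-1.02). Some of these are also markers of other cells here. The skeletal or cardiac muscle list holds ssc-miR-133b, the smooth muscle and stroma list ssc-miR-145-5p and ssc-miR-214, and the leukocyte list below ssc-miR-150. With ssc-miR-202-5p and ssc-miR-224, ssc-miR-21 and ssc-miR-335 were also past the threshold and higher in the pooled luteal sows (1.94 and 1.36). In LL vs. FL the calls of ssc-miR-212, ssc-miR-210 and ssc-miR-214 had an adjusted p over 0.05 (0.0538 to 0.144 by edgeR).

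In the pooled phases 2 of the 18, ssc-miR-21 and ssc-miR-335, were past the threshold and higher, beside 12.1% of all entries, and 6 were lower in luteal ovaries, beside 7.64% (ssc-miR-133b, ssc-miR-10a-5p, ssc-miR-145-5p, ssc-miR-210, ssc-miR-19b and ssc-miR-150). Of the latter, ssc-miR-10a-5p, ssc-miR-210, ssc-miR-19b and ssc-miR-150 had an adjusted p over 0.05 (0.0630 to 0.131 by edgeR). In LH vs. FH ssc-miR-21 was higher (1.61), beside 9.6% of 323 entries. There ssc-miR-133b and ssc-miR-145-5p were lower (-1.91 and -1.24), beside 2.79%. No LH vs. FH call of the list had an adjusted p under 0.05 (0.239 to 0.307 by edgeR). Between fecundity classes ssc-miR-132 was higher in LL than in LH (1.17), beside 6.63% of 362 entries. There ssc-miR-133b and ssc-miR-10a-5p were lower (-1.77 and -3.21), beside 6.35%. None of the 18 passed in FH vs. FL, beside 6.19% of 307 entries. None of these fecundity calls had an adjusted p under 0.05 by edgeR. For the interaction 3 of the 18 passed, ssc-miR-150, ssc-miR-10a-5p and ssc-miR-145-5p, beside the 13.3% of all entries given above. Of the 59 entries called in that fit, 41 were negative, and so were these 3.

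Markers of other cells were measured beside the members. The 5 epithelial miRNAs did not all move together, so their sum does not stand for each of them. In LL vs. FL 2 of them were past the study's threshold and higher and 2 lower, beside 15.6% and 14.2% of all entries. The smooth muscle and stroma list summed to 148611 to 246428 CPM in LH, while FH reached 273082 to 488813 CPM, so it was higher in follicular than in luteal sows in each fecundity class. Leukocyte miRNAs (ssc-miR-142-5p, ssc-miR-150, ssc-miR-155-5p and ssc-miR-146a-5p) summed to 827 to 1941 CPM in luteal and 1489 to 2994 CPM in follicular sows. Erythrocyte miRNAs (ssc-miR-144 and ssc-miR-486) summed to 32.1 to 186 CPM, with overlapping groups. The liver miRNA ssc-miR-122 was at 1.76 to 99.5 CPM in luteal and 3.27 to 1363 CPM in follicular sows, and the neural list (ssc-miR-124a, ssc-miR-9 and ssc-miR-137) summed to 18.3 to 176 CPM. The part of these differences in the members' values was not tested.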

How the data were processed

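The authors deposited raw counts of reads per miRNA in 16 libraries of sow ovary, without normalization or pooling. Per the labels and the study's methods, reads were mapped to Sscrofa10.2 with Bowtie2 2.1.0, and unmapped reads were used to predict further miRNAs. The step that counted reads per miRNA is not given in the sources used here, and reads of several loci, arms or near copies can be split or counted more than once. Groups came from the sample titles and labels.

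All entries were tested together with edgeR 4.0.16 (quasi-likelihood fit after TMM) in R 4.3.3, after a filter on low counts. The filter asks for about 10 counts in as many libraries as the smallest group holds, from any group, and 15 in sum. DESeq2 1.42.0 was an alternative. Pairs of groups were fitted alone, and phase and interaction in all 16 libraries. A positive log2 fold change means higher in low fecundity, or in luteal, sows, and the interaction is the fecundity difference in luteal minus that in follicular sows. Adjusted p-values are Benjamini-Hochberg over all entries tested, and exact permutation tests (two-sided) used log2(CPM + 1) and were not adjusted. Intervals are 95%, and 3 counts were taken as the limit where none was seen, for counting error only. The tests were checked on simulated counts.

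The members, the list of 18 miRNAs and the marker lists were chosen with earlier results of these data known. Named were all members, the 3 known miRNAs most like each by Pearson's r, ssc-miR-452, and each of the 18 past the study's threshold. Clean read share and parity, used as covariates in alternatives, came from the study's supplement. Same-numbered sows did not vary together, and replicates were separate sows with no duplicated libraries.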

Additional observations from a re-analysis of the deposited data

Results flagged for a closer look

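In LL the level of ssc-miR-378 was 847 CPM in sow LL1 against 736 to 752 CPM in the other 3 sows, a gap of 0.851 of the group's range, past Dixon's critical value for 4 samples. The group's whole spread was small (SD 52.6 CPM), and the sow stayed below all FL sows. For ssc-miR-383 sow FL4 had 5.88 CPM against 0.285 to 0.682 CPM in the other FL sows, a gap of 0.929 of the range. Of 20 groups of 4 sows tested for such a gap, chance alone flags about 1 in 20. The fecundity by phase interaction of ssc-miR-320 was -1.57 on the log2 scale (adjusted p = 0.216 by edgeR), so its fecundity effects in luteal and follicular ovaries differed by the test of the difference before adjustment and not after it.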

How the results depend on the processing

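Of 564 member log2 fold changes under another setting, 509 kept their direction and side of the study's threshold, 22 lost it, 23 gained it and 10 changed sign. In LH vs. LL and LH vs. FH the omission of LH4, FL2 and FL4 removes LH4 alone, so that fit is counted under 2 settings. The sign changes, none of them called, were in LH vs. LL ssc-miR-378 by library size alone (0.55), with parity (0.17) and without LH1 (0.0040, range -0.18 to 0.0040 over sows left out) and ssc-miR-202-5p without LL2 (-0.26, range -0.26 to 0.37), in LH vs. FH ssc-miR-224 with clean read share (-0.063) and without LH3 (-0.64, range -0.64 to 0.66 over sows left out), in FH vs. FL ssc-miR-383 with clean read share (-0.42), without FL4 (-0.95, range -0.95 to 1.51) and without LH4, FL2 and FL4 (-1.25), and in the interaction ssc-miR-383 without these 3 libraries (0.73). Their omission was chosen after the data were seen. In the exact test by library size alone LH vs. LL was 0.55 for ssc-miR-378 and 0.0072 for ssc-miR-320, and in LL vs. FL p was 0.2 and 0.114 for these members. By library size alone the median log2 fold change of all entries moved from 0.15 to 0.73 (LH vs. LL), 0.12 to 0.44 (FH vs. FL), 0.22 to 0.61 (LL vs. FL), 0.17 to 0.56 (phase) and -0.22 to 0.07 (interaction), and entries called higher and lower from 24 and 23 to 57 and 11, 17 and 2 to 23 and 1, 53 and 48 to 64 and 29, 54 and 34 to 81 and 17, and 18 and 41 to 26 and 29. In LH vs. FH the median moved from 0.23 to 0.42, and entries called higher and lower from 31 and 9 to 39 and 8. The causes were not tested.

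Members past the threshold were 1 in place of 0 by library size alone in the 2 fecundity comparisons (0 to 1 with 1 sow left out), and for LH vs. FH with DESeq2, library size alone, TMM on known miRNAs, the stricter filter (10 counts in 4 libraries), no filter, the replicate block and without the 3 libraries (0 to 1). For the pooled phases they were 1 with clean read share or without the 3 libraries (1 to 4), and for the interaction 2 with DESeq2 or TMM on known miRNAs and 0 without the 3 libraries (0 to 2). LL vs. FL kept 4 (4 to 4), except 3 by library size alone or with no filter.

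Entries past the threshold were 158 with no filter and 14 with clean read share for LH vs. LL (47 in the reported fit, 33 to 94 with 1 sow left out). For FH vs. FL (19, 11 to 43) they were 93 with no filter, 6 with clean read share, 5 with parity, 37 in 1 fit of 16 libraries and 7 without the 3 libraries. For LH vs. FH (40, 24 to 55) they were 117 with no filter, for LL vs. FL (101, 96 to 141) 222, for the phases (88, 100 to 136) 307 and 145 without the 3 libraries, and for the interaction (59, 57 to 79) 122 with no filter. Each fit was filtered anew, also with 1 sow left out, so these counts are not out of the same entries. The reported fits tested 307 to 445 entries, those with no filter 1189 to 1940, and the phases without the 3 libraries 618.

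Entries with an adjusted p under 0.05 for LH vs. LL (3, 0 to 8) were 28 with DESeq2, 1 in 1 fit of 16 libraries and 0 with no filter, identical entries collapsed, clean read share, parity or without the 3 libraries. For FH vs. FL (2, 0 to 1) they were 11 with DESeq2 and 0 by library size alone, with no filter, at least 10 counts, clean read share, parity or 1 fit of 16 libraries. For LH vs. FH (3, 1 to 3) they were 8 with DESeq2, 1 with clean read share and 0 in 1 fit, for LL vs. FL (60, 33 to 79) 121 with DESeq2 and 6 with no filter, for the phases (67, 30 to 79) 114 with DESeq2, and for the interaction (0, 0 to 6) 59 with DESeq2 and 24 with no filter.

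Same-numbered sows shared only a number, since 4 of 24 same-number pairs had a correlation of deviations over 0.1 (-0.19 to 0.37). With the replicate block the entries past the threshold were 32 for LH vs. LL, 4 for FH vs. FL, 34 for LH vs. FH, 71 for LL vs. FL, 95 for the phases and 39 for the interaction, with an adjusted p under 0.05 for 0, 0, 0, 0, 50 and 0. All 4 members stayed past the threshold in LL vs. FL, with no adjusted p under 0.05, ssc-miR-202-5p passed in LH vs. FH (1.47) and ssc-miR-224 did not in the pooled phases (1.17). Counts of 0 to 23 in 15 of the 16 libraries limit ssc-miR-383.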
